A study of Arabidopsis thaliana with 12 samples.

Results

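HSP101 (AT1G74310), CLPB3 (AT5G15450) and CLPB4 (AT2G25140) are the 3 genes described here, chosen by locus from the 32833 loci of a leaf RNA-seq table as the disaggregase of the cytosol, that of the chloroplast and that of the mitochondria. The plants were wild-type Arabidopsis thaliana of the Col-0 ecotype, 30 days old, raised at 23 °C under 50 µmol m-2 s-1 of light for 12 h a day. Their leaves were sampled from untreated plants (control, CT), or after 7 h at 600 µmol m-2 s-1 (high light, HL), at 42 °C (heat, HS) or under both together (the combination, HL_HS), with 3 libraries per group and 12 in all. Nothing in the labels states whether replicate libraries are from different plants, so p-values measure library-to-library spread, possibly technical. Whole leaves were used, so a change in RNA per cell cannot be told apart from a change in the mix of cells.

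Class B HSP100 proteins are ring-shaped ATPases that thread aggregated proteins through a central pore, and they work with HSP70 and its J-protein partners, which deliver the aggregates. HSP101 is needed for acquired thermotolerance in Arabidopsis, while CLPB3 acts in chloroplast development and in the upkeep of plastid enzymes, and CLPB4 carries a mitochondrial targeting signal. Heat shock factors bind repeats of the unit nGAAn, called heat shock elements, in the promoters of such genes.

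HSP101 lies on chromosome 1 (27936508 to 27940369, minus strand), CLPB3 on chromosome 5 (5014212 to 5018347, minus strand) and CLPB4 on chromosome 2 (10697629 to 10702203, minus strand), in RefSeq's annotation of TAIR10.1. Translated from the annotated coding sequences, HSP101 has 911 residues in 6 exons, CLPB3 968 in 9 exons and CLPB4 964 in 10 exons. CLPB3 and CLPB4 were 66.5% identical over aligned residues. HSP101 was 51.1% identical to CLPB3 and 49.8% to CLPB4. Every protein of the 3 held 2 matches to the Walker A motif, the nucleotide-binding loop of such ATPases. Of the stretches of 50 bases in their exons, 6 of 3068 in HSP101 occurred elsewhere in the nuclear genome, 0 of 2745 in CLPB3 and 0 of 2858 in CLPB4.

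The promoters differed in heat shock element letters. The window ran from 250 bases before to 50 bases after the start of the transcript with the longest coding sequence, and the search was for 2 adjoining units, GAANNTTC or TTCNNGAA, each of which reads the same on both strands. HSP101 held 1 GAANNTTC pair, at bases -31 to -24 from the start, a place that lies in the 5′ UTR of a longer second RefSeq transcript. CLPB3 held 1 TTCNNGAA pair, at bases -134 to -127. CLPB4 held neither in its window, which reaches into the gene AT2G25150, 137 bases upstream of CLPB4. GAANNTTC occurred in 11.8% of 27443 promoter windows of the genome, TTCNNGAA in 9.19%, and at least 1 of the 2 in 19.5%. A run of 3 alternating units (GAANNTTCNNGAA or TTCNNGAANNTTC, which contain both pairs) occurred in 0.507% of windows and in none of these 3 genes. The matches are shown in their 30 bases of context, with the GAA and TTC letters in capitals. For CLPB4, which had no match, the 100 bases before its start are given in lower case. All are from RefSeq's TAIR10.1 genome, read 5′ to 3′ on the minus strand (HSP101 at chr1:27940322-27940351, CLPB3 at chr5:5018463-5018492, CLPB4 at chr2:10702204-10702303). The deposited file has no coordinates.
HSP101: ataaaataagcGAAaaTTCcacgtgacatc
CLPB3: catcccgatggTTCacGAAgactccggcgt
CLPB4: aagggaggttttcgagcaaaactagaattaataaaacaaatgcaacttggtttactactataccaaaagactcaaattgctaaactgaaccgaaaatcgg
A match of letters, or the lack of one, is a description of sequence, not evidence of binding or of its absence.

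Recovered reads numbered 29814116 to 36938786 per library. The size factors that the authors divided by were 0.5353 to 0.6048 in the combination and 1.048 to 1.527 in the other groups, so a normalised count in the combination stands for fewer reads than elsewhere, and shares of reads are given beside the largest values. Markers of other cell types moved with the treatments too, given here as ranges of summed normalised counts over the 3 libraries of each group. The 3 mesophyll markers summed to 483600 to 628900 (control), 640300 to 821900 (high light), 330800 to 611500 (heat) and 924000 to 1103000 (combination), and against control 2 of 3 were called higher in the combination while RBCS1A was at -0.33 (not called). The 3 guard cell markers gave 1230 to 1465, 1654 to 1781, 895.7 to 1169 and 348.9 to 530.6 by the same order of groups, with 2 of 3 lower in the combination. The 3 phloem markers gave 7437 to 9358, 4571 to 5604, 5094 to 8642 and 2516 to 2793, with 2 lower in the combination and APL higher by 0.94. The 3 epidermis markers gave 13160 to 14200, 9058 to 11440, 8010 to 9334 and 7176 to 11530, with 1 of 3 lower in the combination. The 3 flower markers gave 7.882 to 12.66, 8.854 to 17.22, 8.084 to 22.89 and 26.45 to 36.81, and AG, the 1 tested, was higher in the combination. The 4 seed markers summed to at most 6.198 in any library. Their part in the changes described below was not tested.

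Per kilobase of coding sequence HSP101 was the scarcest of the 3 in control leaves and the most abundant under the combination (per-kilobase values follow the ratios). Its normalised counts were 269.3, 334.2 and 242.6 in control. Under high light they were 259.1, 1057.6 and 3323.0. Under heat they were 2325.0, 36623.8 and 231174.0. The combination gave 463510.9, 1461292.7 and 997090.8. Every combination library was above every heat library and every heat library above every control library, while high light 1 sat among the controls and high light 3 above heat 1. The spread within a group was widest in heat, where the highest library held 99.4 times the lowest, against 1.38 times in control, 12.8 times in high light and 3.15 times in the combination. HSP101 reads made up 0.001024% ± 0.000237 of a control library, 0.274% ± 0.371 of a heat library and 1.755% ± 0.738 of a combination library (SD, n = 3 each).

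Per kilobase CLPB3 was the most abundant of the 3 in control leaves, and its highest library was 1.08, 1.33, 9.22 and 3.13 times its lowest in control, high light, heat and combination. Its normalised counts were 2331.2, 2166.8 and 2283.1 in control and 5955.1, 5354.8 and 4488.2 under high light. Heat gave 5774.2, 20164.5 and 53230.7, and the combination 105575.8, 330866.1 and 251426.7. All high light libraries were above all controls, heat 1 fell within the high light range, and all combination libraries were above all heat libraries. CLPB3 took 0.414% ± 0.175 of reads in the combination against 0.00814% ± 0.000216 in control (SD, n = 3 each).

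CLPB4 had the lowest level per kilobase of the 3 under heat and under the combination, and its groups did not overlap. Normalised counts were 474.5, 575.4 and 461.2 in control and 666.2, 1027.8 and 865.1 under high light. They were 1610.0, 5711.9 and 6894.8 under heat and 13483.0, 43226.5 and 36121.0 in the combination. The order control, high light, heat, combination therefore held for every library of CLPB4. The share of all tested genes whose groups separate as they do in these 3 genes is not given here. It took 0.0561% ± 0.0249 of reads in the combination and 0.001826% ± 0.000347 in control (SD, n = 3 each).

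**Figure D1:**
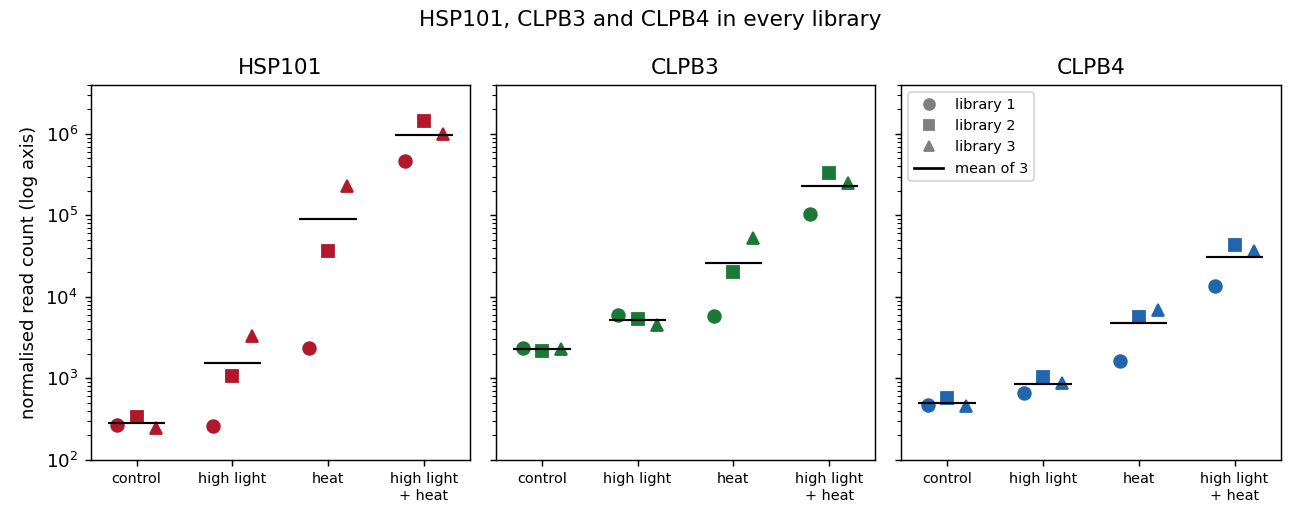
Normalised read counts (log axis) of HSP101, CLPB3 and CLPB4 by group, one marker shape per library number and a line for the mean of 3. The heat libraries of HSP101 run from 2325.0 to 231174.0, and in all 3 panels the combination libraries are the highest.

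High light alone did not move any of the 3 past the test. Changes are log2 differences of log2(normalised count + 1) ± SE, a scale on which changes of genes with few reads come out too small, from a limma fit of 19309 genes in all 12 libraries, with Benjamini-Hochberg adjusted p under 0.05 as the threshold. HSP101 was 1.79 ± 1.28 (adjusted p = 0.308), CLPB3 1.21 ± 0.61 (adjusted p = 0.147) and CLPB4 0.74 ± 0.50 (adjusted p = 0.279). So 0 of 3 members were called higher, where 18.1% of all tested genes were called higher and 16.6% lower. With only the control and high light libraries in the limma fit, whose spread was small for the organellar genes, CLPB3 had the same change of 1.21 with an SE of 0.117 (adjusted p = 0.000191) and CLPB4 0.74 with an SE of 0.173 (adjusted p = 0.00926). Leaving out high light 1 gave 2.74 for HSP101 and leaving out high light 3 gave 0.90, with no call in either case.

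Heat raised all 3, and HSP101 most. HSP101 rose by 6.59 ± 1.28 (adjusted p = 0.00116), CLPB3 by 3.02 ± 0.61 (adjusted p = 0.00152) and CLPB4 by 2.99 ± 0.50 (adjusted p = 0.000439) in the limma fit. All 3 of 3 were called higher, beside 24.6% of all tested genes called higher and 24.8% lower. By size of rise HSP101 ranked 32 of 19309 genes, CLPB3 446 and CLPB4 451. The size for HSP101 rests on which heat libraries are used, being 8.36 without heat 1 and 5.04 without heat 3. Likewise CLPB3 was 3.86 and 2.25 in those fits, and CLPB4 was 3.64 without heat 1, with every call kept. The count model edgeR gave HSP101 8.30 (adjusted p = 0.000862).

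The combination raised the 3 further. HSP101 rose by 11.61 ± 1.28 against control (adjusted p = 1.28e-05), CLPB3 by 6.51 ± 0.61 (adjusted p = 4.07e-06) and CLPB4 by 5.78 ± 0.50 (adjusted p = 2.27e-06). All 3 of 3 were called higher, where 29.8% of tested genes were called higher and 29.7% lower. HSP101 ranked 21 of 19309 by rise, CLPB3 127 and CLPB4 183. With library totals in place of the deposited size factors, which moves the all-gene median in this comparison by -0.943, the changes were 10.66, 5.56 and 4.83, all still called.

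Against heat alone the combination was higher by 5.02 ± 1.28 for HSP101 (adjusted p = 0.00534), 3.49 ± 0.61 for CLPB3 (adjusted p = 0.000521) and 2.79 ± 0.50 for CLPB4 (adjusted p = 0.000601). This was 3 of 3 members called higher, beside 27.9% of tested genes. HSP101 was 3.25 without heat 1 and 6.57 without heat 3, CLPB3 was 2.66 and 4.26, and CLPB4 was 2.14 without heat 1. By edgeR the difference for HSP101 was 3.38 (adjusted p = 0.0322). Against high light alone the combination was higher by 9.82 ± 1.28 for HSP101 (adjusted p = 4.68e-05), 5.30 ± 0.61 for CLPB3 (adjusted p = 2.08e-05) and 5.04 ± 0.50 for CLPB4 (adjusted p = 7.75e-06), again 3 of 3, where 28.1% of tested genes were called higher. Leaving out high light 1 gave 8.87 for HSP101, and leaving out high light 3 gave 10.71. Heat exceeded high light by 4.80 ± 1.28 for HSP101 (adjusted p = 0.00797), 1.81 ± 0.61 for CLPB3 (adjusted p = 0.0262) and 2.25 ± 0.50 for CLPB4 (adjusted p = 0.0028), 3 of 3 where 24.5% of tested genes were called higher. Without single libraries HSP101 stayed called here, at 3.85 without high light 1, 5.69 without high light 3, 6.57 without heat 1 and 3.25 without heat 3. CLPB4 was 2.90 without heat 1. For CLPB3 the call was lost without any 1 of high light 1, 2 or 3 and heat 2 or 3, and the change was 1.05 without heat 3 and 2.65 without heat 1.

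The interaction asks whether the response to heat under high light differs from that under growth light, on the log2 scale. It was 2.28 ± 0.86 for CLPB3 (adjusted p = 0.0460) and 2.05 ± 0.71 for CLPB4 (adjusted p = 0.0314), so both rose more under the combination than the sum of the single changes. For HSP101 it was 3.23 ± 1.81 (adjusted p = 0.160) and was not called. Thus 2 of 3 members were called higher, beside 23% of tested genes called higher and 23.2% lower. Summed single changes came to 4.23 for CLPB3 against 6.51 measured, 3.73 against 5.78 for CLPB4 and 8.38 against 11.61 for HSP101. Both calls rest on single libraries. CLPB3 lost its call without any 1 library other than heat 3 and combination 1 (10 of 12 fits, range 1.44 to 3.05). CLPB4 lost it without any 1 of control 1, 2 or 3, high light 1 or 3 and combination 2 or 3 (7 of 12 fits, range 1.39 to 2.57). With library totals as the scaling neither was called, at 1.46 and 1.23 (adjusted p = 0.0999 and 0.0899). HSP101 was 4.78 without heat 3 (adjusted p = 0.0174) and 1.46 without heat 1, and edgeR gave 0.94 (adjusted p = 0.650).

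**Figure D2:**
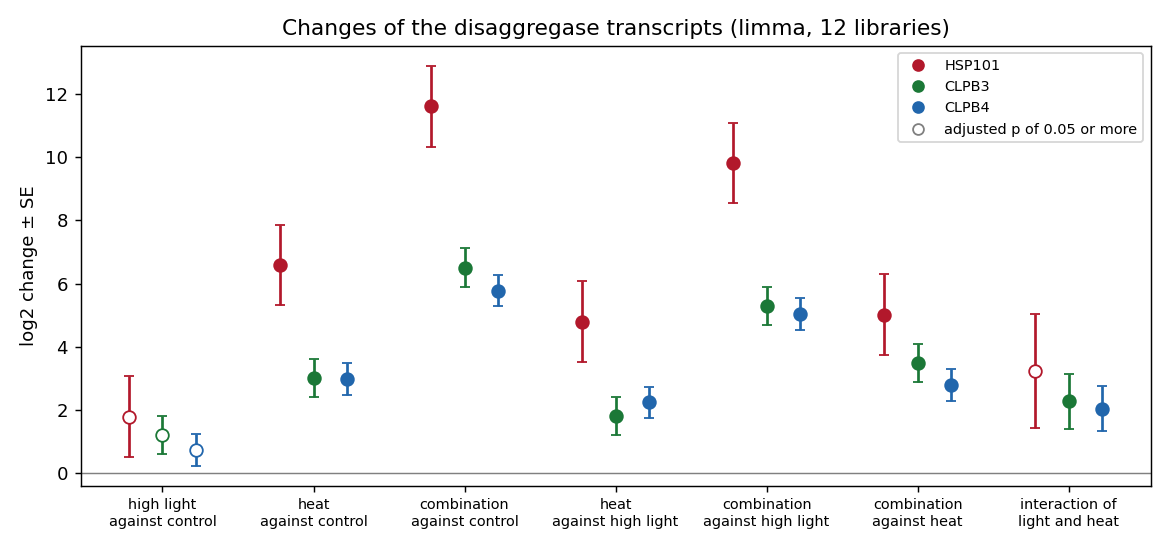
Log2 change ± SE of each member in 7 comparisons, filled where the adjusted p is under 0.05. The combination against control gives the largest changes (11.61, 6.51 and 5.78), and HSP101 lies above both organellar genes in every comparison with wider error bars.

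Within a library the scaling cancels, so the balance between the 3 can be read from ratios of their counts (coding lengths are 2736 bases for HSP101, 2907 for CLPB3 and 2895 for CLPB4, and the ratios are not corrected for them). HSP101 to CLPB3 was 0.106 to 0.154 in control, 0.0435 to 0.740 under high light, 0.403 to 4.34 under heat and 3.97 to 4.42 in the combination. HSP101 to CLPB4 was 0.526 to 0.581, 0.389 to 3.84, 1.44 to 33.5 and 27.6 to 34.4 in the same order. CLPB3 to CLPB4 was 3.77 to 4.95, 5.19 to 8.94, 3.53 to 7.72 and 6.96 to 7.83. The combination libraries agreed closely in each ratio, while those of heat were spread, heat 3 matching the combination and heat 1 lying lowest in both HSP101 ratios.

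With heat (heat and combination against control and high light, libraries permuted within each light level), the log2 ratio of HSP101 to CLPB3 was higher by 4.04 and that of HSP101 to CLPB4 by 4.19, each with exact permutation p = 0.005, the smallest that 400 permutations can give, and adjusted p = 0.015 over 6 tests (two-sided). With the replicate number as a block, each had exact permutation p = 0.03125, the smallest that the 64 sign flips of that test can give. Neither was called after adjustment over 6 tests (adjusted p = 0.09375 each). With a floor that near the threshold, the missing call cannot decide whether these ratios differ. In the test of 400 permutations the log2 ratio of CLPB3 to CLPB4 differed by 0.15 with heat (exact permutation p = 0.545, adjusted p = 0.545). With light, the 3 differed by 1.06 (exact permutation p = 0.215), 1.64 (p = 0.075) and 0.58 (p = 0.035), with adjusted p = 0.258, 0.1125 and 0.07. CLPB3 to CLPB4 was thus not called for either treatment. That ratio was 0.77 for light without heat 3, with adjusted p = 0.01. Without high light 1 the light difference was 1.58 for HSP101 to CLPB3 and 2.03 for HSP101 to CLPB4, both with adjusted p = 0.015, and for the latter it was 2.22 without heat 3 (adjusted p = 0.03).

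**Figure D3:**
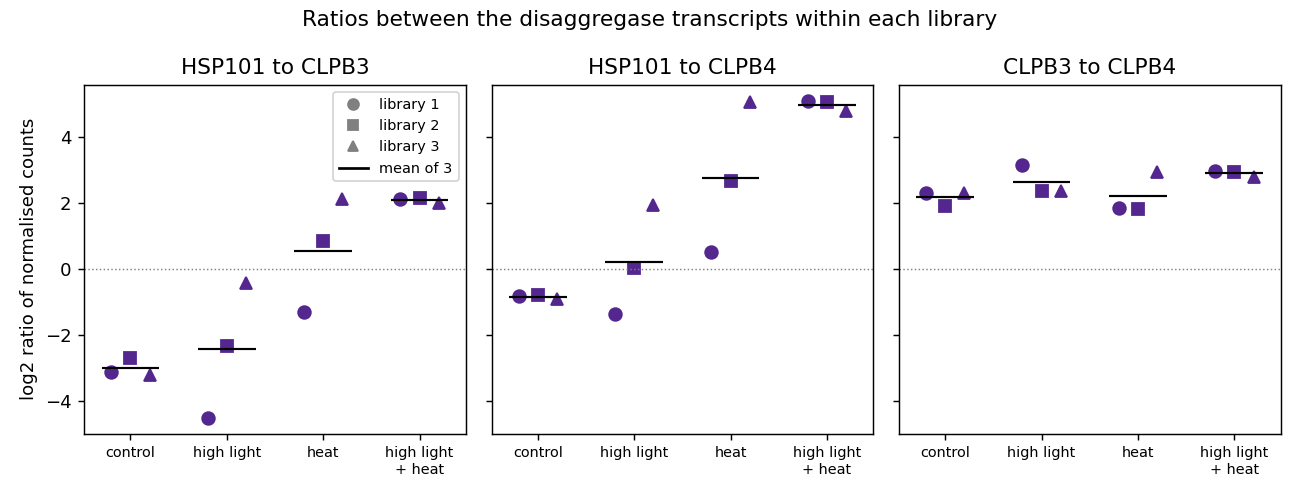
Log2 ratios of normalised counts between the members, one marker per library and a line for the mean of 3; the dotted line marks equal counts. The count of HSP101 moves from below that of CLPB3 in control (ratio 0.106 to 0.154) to above it in the combination (3.97 to 4.42), while CLPB3 has more counts than CLPB4 in all 12 libraries.

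Per kilobase of coding sequence, the scale on which levels of different genes can be set side by side, the control means were 777.6 ± 29.05 for CLPB3, 174.0 ± 21.6 for CLPB4 and 103.1 ± 17.19 for HSP101 (SD, n = 3 each). In the combination the order was HSP101 at 356000 ± 182500, CLPB3 at 78870 ± 39300 and CLPB4 at 10690 ± 5366. CLPB3 therefore made up 69.9 to 76.0% of the summed level of the 3 in control and 17.2 to 18.7% in the combination, and HSP101 8.58 to 11.5% and 78.6 to 80.6%. CLPB4 went from 15.4 to 18.6% to 2.21 to 2.69%. Under heat HSP101 had 25.1, 60.0 and 80.3% in libraries 1, 2 and 3, so heat 1 and 2 lay between control and combination while heat 3 lay within the combination range, as it did for the other members too. CLPB4 in heat 1, at 16.4%, lay within the control range. Under high light HSP101 had 3.99, 15.0 and 39.7%.

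**Figure D4:**
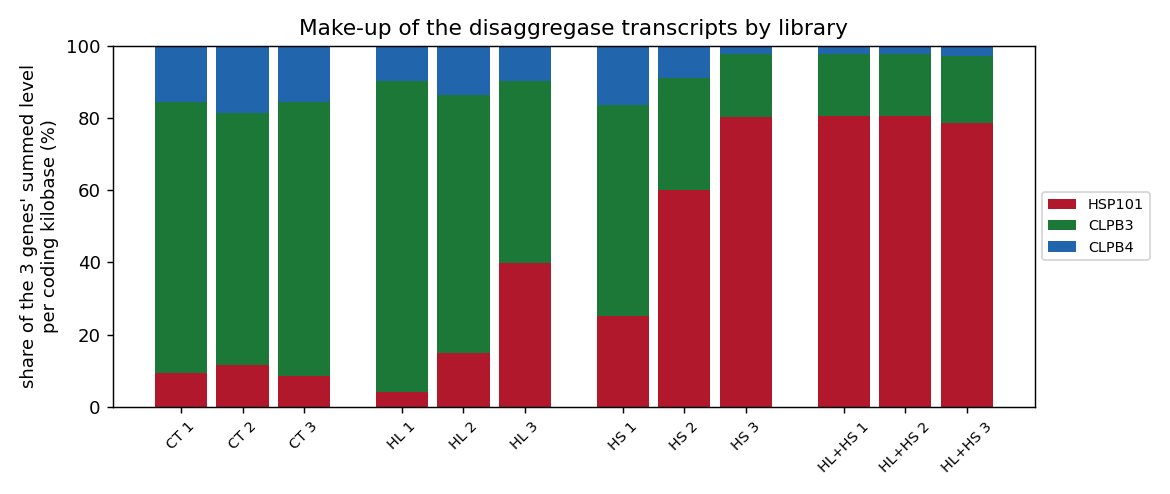
Share (%) of the summed level per coding kilobase taken by each member in each of the 12 libraries. HSP101 takes 8.58 to 11.5% in control and 78.6 to 80.6% in the combination, with heat 1 to 3 at 25.1, 60.0 and 80.3%.

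The remaining class B relative, CLPB2 (AT4G14670), whose annotated protein was 73.9% identical to HSP101 but only 623 residues long, was at 0 in 10 of 12 libraries and at 1.0 and 1.9 in the other two, and was not tested. Among the 6 tested Clp ATPases of the plastid and mitochondria, which unfold proteins for degradation or import, 1 was called higher under high light, 4 under heat and 2 under both together, and 0 were lower in any of these. The counts of 1 and 2 are near the shares of all tested genes called higher (18.1% and 29.8%, against 24.6% in heat). The list had medians of -0.09, 0.59 and -0.07 against all-gene medians of -0.03, 0.00 and -0.02. CLPC1 (AT5G50920), the main plastid stromal Clp ATPase, was at 0.45 ± 0.20, 0.17 ± 0.20 and -0.28 ± 0.20 (adjusted p = 0.0998, 0.491 and 0.236). CLPD (AT5G51070) rose by 1.02 ± 0.19 in heat (adjusted p = 0.000786) and 1.24 ± 0.19 in the combination (adjusted p = 0.000128). CLPC2 (AT3G48870) rose by 1.34 ± 0.15 in high light (adjusted p = 3.46e-05), 1.17 ± 0.15 in heat (adjusted p = 9.10e-05) and 0.67 ± 0.15 in the combination (adjusted p = 0.00242), though the last was -0.28 with library totals as the scaling. The count in heat is 2 with library totals, without control 3 or without heat 2, and that in the combination 0 higher and 4 lower with library totals. In these ATPases no change reached 2 on the log2 scale in a stress against control, against 2.99 or more for the 3 disaggregases in heat. In high light the 3 disaggregases were below 2 as well, at 1.79, 1.21 and 0.74 (none called), beside 1.34 for CLPC2 (called).

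Among 11 HSP70 and HSP110 genes, the cytosolic, plastid and mitochondrial partners of the disaggregases, 9 were higher under high light, 9 under heat and 11 under both together, and 0 were lower, with medians of 1.72, 1.80 and 5.10. Of all tested genes 18.1%, 24.6% and 29.8% were called higher and 16.6%, 24.8% and 29.7% lower, in the same order. The difference between this list and the 3 disaggregases, which were not called in high light, was not tested. HSP70-4 (AT3G12580), a cytosolic member, rose by 4.73 ± 0.93, 9.62 ± 0.93 and 13.40 ± 0.93 under high light, heat and both together (adjusted p = 0.00163, 1.24e-05 and 6.54e-07). It was 5.71 in high light without high light 1, and in heat 10.70 without heat 1 and 8.67 without heat 3. The plastid CPHSC70-1 (AT4G24280) rose by 1.64 ± 0.22, 1.51 ± 0.22 and 1.83 ± 0.22 and the mitochondrial MTHSC70-1 (AT4G37910) by 2.20 ± 0.23, 1.31 ± 0.23 and 1.75 ± 0.23 (adjusted p = 0.000572 or lower for these 6). MTHSC70-2 (AT5G09590), also mitochondrial, rose by 2.62 ± 0.59, 3.68 ± 0.59 and 7.49 ± 0.59 (adjusted p = 0.00383, 0.000323 and 1.19e-06), and was 4.43 in heat without heat 1 and 2.89 without heat 3. In the plastid, the change of both HSP70 genes stayed between 0.97 and 2.11 across the stresses, beside 1.21 to 6.51 for CLPB3.

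Of 11 J proteins and nucleotide exchange factors, the cochaperones of HSP70, high light had 7 higher and 3 lower and heat 7 and 0. The combination had 8 and 2 (5 and 3 with library totals), and the medians were 1.17, 1.29 and 1.40. Among all tested genes 18.1%, 24.6% and 29.8% were called higher and 16.6%, 24.8% and 29.7% lower under high light, heat and both together. MGE2 (AT4G26780), a mitochondrial exchange factor, rose by 2.16 ± 0.35, 2.34 ± 0.35 and 4.86 ± 0.35 (adjusted p = 0.00039, 0.000188 and 7.13e-07). J20 (AT4G13830), a plastid J protein, fell by 2.07 in high light (adjusted p = 3.39e-05). All 8 plastid and mitochondrial chaperonins, which fold newly imported proteins, were higher under high light, as were 7 under heat and 7 under both together, with medians of 1.65, 1.57 and 1.77 and 0 lower. For these chaperonins the interaction went the other way from CLPB3 and CLPB4, with 0 higher and 7 lower of 8 (median -1.53). Over all tested genes 23% were called higher and 23.2% lower in the interaction. The calls of CLPB3 and CLPB4 were themselves lost in 10 of 12 and 7 of 12 left-out fits and with library totals. CPN60B2 (AT3G13470), a plastid subunit, rose by 2.65 ± 0.31, 3.36 ± 0.31 and 4.38 ± 0.31 (adjusted p = 3.89e-05, 9.07e-06 and 6.95e-07).

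The 12 tested small heat shock proteins are holdases for unfolded proteins, in the cytosol, plastid or mitochondria. Those of the cytosol keep such proteins in a form that HSP101 can act on. All 12 were higher in heat and in the combination and 1 was in high light, with medians of 10.94, 14.71 and 1.48. HSP21 (AT4G27670), in the plastid, rose by 12.94 ± 1.08 in heat (adjusted p = 5.18e-06), 13.83 without heat 1, 13.89 without control 2 and 12.10 without control 3. Of all tested genes 24.6% were called higher in heat, 29.8% in the combination and 18.1% in high light. The 1 of 12 small heat shock proteins in high light is below that share. In high light the count of small heat shock proteins is 3 without high light 1 and 2 without control 2. The 8 acquired thermotolerance partners were all higher in heat and in the combination (medians 6.30 and 9.25), and 4 in high light (median 1.67), which becomes 1 without control 1, control 3, high light 2 or high light 3 and 2 without control 2. HSA32 (AT4G21320), which retards the decay of HSP101 protein after heat, was at -0.56 ± 0.52 in high light (adjusted p = 0.441) and rose by 6.60 ± 0.52 in heat (adjusted p = 4.02e-06) and 8.26 ± 0.52 in the combination (adjusted p = 3.90e-07), and was 7.34 in heat without heat 1. HSA32 counts were 50.7 to 74.3 in control and 32.9 to 57.4 under high light, then 2238.6 to 11639.4 under heat and 13527.6 to 34898 under both together.

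Of 12 tested heat shock factors, high light had 3 higher and 2 lower, heat 11 and 1, and the combination 10 and 1, with medians of 1.02, 3.54 and 5.15. HSFA2 (AT2G26150), a factor that sustains heat-induced transcription of chaperone genes, rose by 5.13 ± 1.51 in high light (adjusted p = 0.0188), 8.06 ± 1.51 in heat (adjusted p = 0.000938) and 13.72 ± 1.51 in the combination (adjusted p = 1.30e-05). Its high light call was lost without control 1, control 3, high light 2 or high light 3, with 3.97 to 4.85 there and 5.75 to 6.56 in the other two left-out fits. In heat it was 9.96 without heat 1, 6.34 without heat 3 and 8.69 without control 2, and in the combination 14.35 without control 2. HSFA2 counts in high light were 129.2, 1383.4 and 4719.3, in the same order of libraries as those of HSP101 (259.1, 1057.6 and 3323.0), and in heat 519.9, 9331.8 and 78546.4. That order was not particular to HSFA2 and HSP101. HSP70-4 shared it in high light, at 753.1, 5074.9 and 6422.8. High light 1 was lowest for 20 of 23 tested HSP70, HSP110 and small heat shock protein genes. Among all tested genes 18.1%, 24.6% and 29.8% were called higher and 16.6%, 24.8% and 29.7% lower under high light, heat and both together. The high light counts of 3 and 2 factors are near those shares. The high light counts of the factors move to 1 higher without control 3 or high light 3, and those lower to between 0 and 1 without any 1 of the 6 libraries. In heat the 1 lower becomes 0 without control 1, 2 or 3 or heat 1 or 2.

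**Figure D5:**
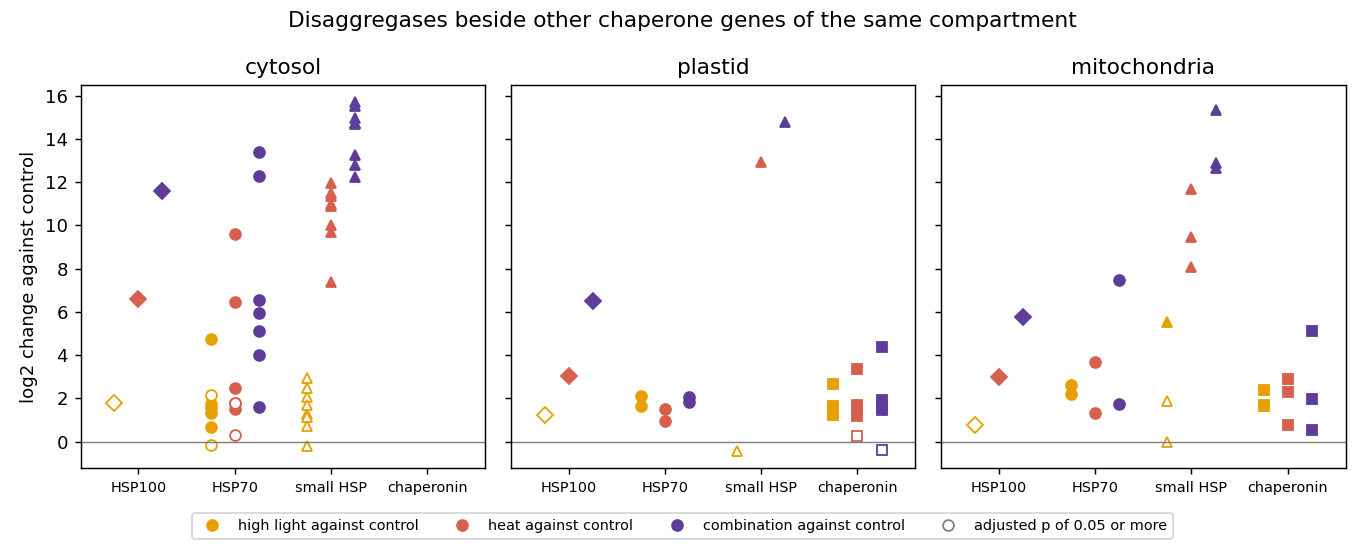
Log2 change against control of the disaggregases and of HSP70, small heat shock protein and chaperonin genes by compartment; each point is 1 gene, filled where the adjusted p is under 0.05. In the plastid and mitochondria the disaggregase in the combination (6.51 and 5.78) lies above the chaperonins (up to 5.13), and the small heat shock proteins lie highest. In the mitochondria the HSP70 gene MTHSC70-2 (7.49) also lies above the disaggregase.

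Heat 1 was the lowest heat library for all 3 members, and for 23 of 23 tested HSP70, HSP110 and small heat shock protein genes, against 39.9% of all tested genes. High light 1 was lowest for 20 of those 23 (31.7% of all tested genes), combination 1 for 18 (39.0%) and control 1 for 13 (31.7%), so library 1 was the most often lowest in all 4 groups. The labels give no batch for these libraries, and a library's place in its group was not tested as a cause.

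The 13 Clp protease core and adaptor genes are of the plastid, where CLPC and CLPD serve that protease, except the mitochondrial CLPP2. Of the 13, high light had 5 higher and 1 lower, heat 1 and 1, and the combination 9 and 0 (1 and 8 with library totals). The medians were 0.43, -0.03 and 0.52. Among all tested genes 18.1%, 24.6% and 29.8% were called higher and 16.6%, 24.8% and 29.7% lower under high light, heat and both together. Both heat counts of this list lie below those shares. In high light the higher count is 2 or 3 and the lower count 0 without any 1 of the 6 libraries. The 1 higher in heat is CLPS1, and it becomes 0 without control 1, 2 or 3 or heat 2 or 3. CLPS1 (AT1G68660), an adaptor that selects substrates, rose by 1.56 ± 0.21 in the combination (adjusted p = 6.46e-05). In high light and heat its changes were 0.60 and 0.59, called in the limma fit but not with the replicate number as a block (adjusted p = 0.0657 and 0.0541). Of 3 enzymes of plastid isoprenoid synthesis, some of which are known clients of plastid chaperones, high light had 1 lower, heat 1 higher and the combination 2 higher (0 higher with library totals, and 1 without control 2 or combination 1). DXS (AT4G15560), the first enzyme of the plastid pathway and a known substrate of CLPB3-dependent refolding, fell by 0.96 in high light (adjusted p = 0.00346) and rose by 0.97 ± 0.21 in heat (adjusted p = 0.0024).

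Across the 12 libraries, on log2(normalised count + 1), the 5 genes with the highest Pearson correlation to HSP101 were AT1G59860 (HSP17.6A-CI, a cytosolic small heat shock protein) at 0.9975, AT1G54050 at 0.9962, AT5G54165 at 0.9923, AT2G20560 at 0.9898 and PDX1.2 at 0.9892. CLPB3 was most like Hop2 at 0.9948, AT1G30070 at 0.994, AT5G03990 at 0.9929, AT3G12050 at 0.9902 and Hsp70-15 at 0.9898. CLPB4 was most like PRF4, a profilin, at 0.9932, AT1G30070 at 0.9921, Hop2 at 0.9915, AT5G37340 at 0.9911 and CRL1 at 0.991. Among themselves the members correlated at 0.9714 (HSP101 and CLPB3), 0.9802 (HSP101 and CLPB4) and 0.9874 (CLPB3 and CLPB4). AT1G30070 and Hop2 stood among the first 5 of both organellar genes and of neither for HSP101. These values describe 12 points in 4 groups that share the treatments and the scaling.

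Both neighbours of HSP101 also rose in the combination, and they were looked at after their values were seen. AT1G74300, on the plus strand and overlapping the 3′ end of HSP101 by 101 bases, had 210.2, 149.0 and 193.9 normalised counts in control and 1954.2, 4590.2 and 3143.6 in the combination, a rise of 4.05 ± 0.82 against control (adjusted p = 0.00102). These counts are 0.314 to 0.422% of those of HSP101 in the same libraries. AT1G74320, on the plus strand and starting 224 bases from HSP101, rose by 3.09 ± 0.41 (adjusted p = 5.12e-05). Beside CLPB3, the gene AT5G15440, overlapping it by 70 bases on the opposite strand, rose by 1.43 ± 0.34 (adjusted p = 0.00315) and AT5G15460 fell by 1.24 (adjusted p = 0.00138). The strand setting of the counting is not given in the sources used here, so reads from overlapping genes on opposite strands cannot be told apart, and whether the overlap sets these values was not tested.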

How the data were processed

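The signal values deposited by the authors are reads per gene divided by 1 size factor per library, made with DESeq2 1.20.0, per the submitters' processing notes, after checks with FastQC 0.11.7 and alignment with STAR 2.4.0.1 to TAIR10. Per the labels' protocols, Trizol RNA was column-cleaned and made into poly(A) libraries. The counting tool, strand setting and filters are not given in the sources used here. In every library all values (100%, within 0.001) were whole multiples of 1 step, from which reads were recovered.

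Of 32833 loci, 32548 are in RefSeq's TAIR10.1 table, used for names and promoters. The 19309 genes with a mean of at least 10 were fitted as log2(normalised count + 1) with limma 3.58.1 (limma-trend, R 4.3.3), 1 mean per group over 12 libraries. Each comparison was adjusted on its own by Benjamini-Hochberg (two-sided, threshold 0.05). Ratios were tested by exact permutation. The scripts were tested on simulated data. Figures used matplotlib 3.10.9. Alternatives were pseudocounts of 0.5 and 10, no filter or one at 50, TMM, upper-quartile and library-total scaling, robust variance, fits of only the groups compared, the replicate number as a block, each library left out, and the count models of edgeR 4.0.16 and of DESeq2 1.42.0 on the reads recovered. There edgeR called 6848, 9720 and 11360 genes and DESeq2 7618, 10356 and 11782 in high light, heat and the combination against control, where limma called 6701, 9528 and 11476. The neighbours of the members, and library totals for the lists, were added after values were seen.

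The members and gene lists were chosen with earlier results of these data known. The naming rule took the 3 members, up to 3 called genes of largest change per list and stress, HSFA2, HSA32, HSP70-4, CLPC1, CPHSC70-1 and MTHSC70-1, and 5 genes per member by correlation; only part of those are printed.

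Correlations were taken between the deviations of same-numbered libraries from their group means. All pairs of control and high light were above 0.1 (0.157 to 0.307), as were those of high light and heat (0.147 to 0.152). The replicate numbers may thus pair the libraries in those 2 comparisons, as a measure from the data, since the labels name no shared batch. In the other 4 pairings of groups not every same-numbered pair was above 0.1 (-0.0757 to 0.107). Some differently numbered libraries correlated as strongly, such as heat 2 with combination 1 (0.187) and heat 1 with combination 3 (0.167). Whether the numbers mark a true pairing was not tested.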

Additional observations from a re-analysis of the deposited data

Results flagged for a closer look

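The interaction of light and heat was called higher by its own test in 2 of the 3 genes. Of all tested genes 23% were called higher and 23.2% lower. This test asks whether the response to heat differs between the 2 light levels. For CLPB3 the response was larger under high light by 2.279 on the log2 scale (limma adjusted p = 0.0460). For CLPB4 it was larger by 2.048 (limma adjusted p = 0.0314). CLPB3 lost its call in 10 of 12 left-out fits and CLPB4 in 7 of 12. With library totals as the scaling neither was called. In both genes, as in HSP101, the combination libraries were above all others. The share of all tested genes for which this holds is not given here. No group of 3 libraries was tested for a single outlying library.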

How the results depend on the processing

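Across the 3 genes, 121 of 144 left-out fits kept the direction and the side of the threshold. The interaction of CLPB3 was not called with no filter (2.28, adjusted p = 0.0566), library totals (1.46, adjusted p = 0.0999) or edgeR (1.85, adjusted p = 0.0880), and that of CLPB4 not with library totals (1.23, adjusted p = 0.0899). With 1 library left out the interaction ran from 1.44 to 3.05 for CLPB3, 1.39 to 2.57 for CLPB4 and 1.46 to 4.78 for HSP101, and heat against high light from 1.05 to 2.65 for CLPB3. With only the groups compared, whose fit rests on fewer libraries, heat against high light for CLPB3 was 1.81 (adjusted p = 0.0542), high light against control was called for CLPB3 (1.21, adjusted p = 0.000191) and CLPB4 (0.74, adjusted p = 0.00926), and 10300 genes were called in high light against control in place of 6701. Left-out light differences of ratios ran from 0.45 to 0.77 (CLPB3 to CLPB4), 0.56 to 1.58 (HSP101 to CLPB3) and 1.08 to 2.22 (HSP101 to CLPB4). With library totals the limma changes of CLPC2 (-0.28), CLPP4 (-0.15), DXR (-0.37) and PSY (-0.33) in the combination against control had the opposite sign. None was called there (limma adjusted p = 0.153, 0.403, 0.0635 and 0.1355). Beyond what the scaling and the fewer libraries set by construction, the cause was not tested. Under upper-quartile scaling the all-gene median shifted by -0.117 in heat and -0.187 in the combination. HSP101 rests on 284 to 424 reads per control library, and the effect of depth was not tested.

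With the replicate number as a block no limma call of the 3 genes changed, and of the other named genes only CLPS1 in high light and in heat lost its call (HSP101 in heat against control 6.59, adjusted p = 0.000261). The heat differences of the log2 ratios in the block were 4.04 (HSP101 to CLPB3) and 4.19 (HSP101 to CLPB4). Each had exact permutation p = 0.03125, the smallest that 64 sign flips can give, and adjusted p = 0.09375 over 6 tests. With that floor the missing call cannot decide whether these ratios differ.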
